A study of Homo sapiens with 30 samples.

Results

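The change in the response of CHLA10 cells to BET inhibition between 3 and 20 days was measured in 12 of the 30 RNA-seq libraries of the series. CHLA10 is an established Ewing sarcoma cell line labelled with the genotype EWS::FLI1, a fused transcription factor that drives this bone and soft tissue tumour, and that label holds for all 12 libraries. They were chosen by cell line and form 4 groups of 3. The 3-day groups received DMSO (the solvent, called vehicle here) or 5 nM of the BET inhibitor BMS-986158 for 72 hours. The 20-day treated group received 5 nM BMS-986158 without a break, with splitting at confluency, and is called persister cells in the labels. The 20-day vehicle group is labelled DMSO, and the labels do not state how long it received vehicle or how it was plated and split. Time in culture, passage, density and vehicle exposure therefore cannot be told apart between the vehicle groups. No source says that replicates were separate cultures, so a p-value here rests on the spread between libraries only, and that spread may be technical. The title of the series points to focal adhesion kinase, encoded by PTK2.

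BET proteins bind acetylated histones and recruit the transcription elongation machinery, and BET inhibitors displace them from chromatin. Genes read from strong enhancers, such as cell cycle regulators and lineage genes, are often the first to fall, while HEXIM1, which holds P-TEFb inactive, commonly rises and serves as a marker of target engagement. In proliferating cells the E2F factors switch on the genes of S phase, and growth factor supply and crowding feed into them through D cyclins and their kinases.

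The quantity examined here is an interaction: the effect of BMS-986158 at 20 days minus its effect at 3 days, each as a log2 ratio to the vehicle group of the same time. For every gene the interaction equals the treated arm (20-day treated against 3-day treated) minus the vehicle arm (20-day vehicle against 3-day vehicle). A positive value can thus come from treated cells that rose, from vehicle cells that fell, or from both. A contrast was called at an adjusted p under 0.05 over the 14937 genes tested with edgeR, and an arm is said to have moved where its own contrast was called. The arms share their libraries with the interaction, so the arm of a called gene is a description and not a further test.

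Total counts ran from 16.5 to 19.7 M reads per library in 3-day vehicle, 22.2 to 24.9 M in 3-day treated, 17.4 to 20.5 M in 20-day vehicle and 25.1 to 26.3 M in 20-day treated cells. Replicate 3 stood farthest from its group at 20 days, with an SD of log2 differences of 0.62 for treated and 0.525 for vehicle, against 0.309 to 0.465 in the other 10 libraries. The 9 Ewing sarcoma markers had counts, though NKX2-2 reached only 0.0402 to 2.1 CPM. Most of their sum came from CCND1 (1320 to 4000 CPM) and CD99 (1170 to 1950 CPM). They had summed CPM (read counts scaled to a common library size) of 6200 to 6230 in 3-day vehicle, 4660 to 4870 in 3-day treated, 5410 to 7060 in 20-day vehicle and 3400 to 5590 in 20-day treated libraries. Of other cell types, the 7 fibroblast markers summed to 322 to 596 CPM over all groups, and the blood markers to between 5.62 and 20.4 CPM with CD3E and HBB at 0. Endothelial markers reached at most 4.69 CPM, and epithelial markers at most 12.2 CPM with KRT5 at 0. In bulk RNA, a smaller number of cells of a type and less RNA per cell cannot be told apart.

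The interaction was called for 1336 genes (8.94% of those tested), of which 635 were higher (4.25% of those tested) and 701 lower (4.69%) at 20 than at 3 days. The vehicle arm held most of this difference. It was called alone for 984 of the 1336 genes (73.7%), the treated arm alone for 182 (13.6%), both for 33 (2.47%) and neither for 137 (10.3%). The vehicle arm was the larger for 1027 genes (76.9%), and its median absolute log2 change over the called genes was 0.49 against 0.18 in the treated arm. These medians were 0.27 and 0.17 over all genes. The arms had opposite signs for 1063 of the 1336 genes (79.6%), so an arm that was not called often added to the interaction. Calling genes by the difference of the arms raises that share. Over all genes the vehicle arm was called for 3277 genes (21.9%; 1773 or 11.9% higher and 1504 or 10.1% lower) and the treated arm for 748 (5.01%; 551 or 3.69% higher and 197 or 1.32% lower). The median standard error was 0.15 in both arms. Most of the response itself was shared by the times: 5630 genes (37.7%; 19.3% higher and 18.4% lower) were called at 3 days and 6052 (40.5%; 19.9% higher and 20.6% lower) at 20 days. Both times called 3307 genes, and the sign was shared for 3155 of them (95.4%).

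**Figure D1:**
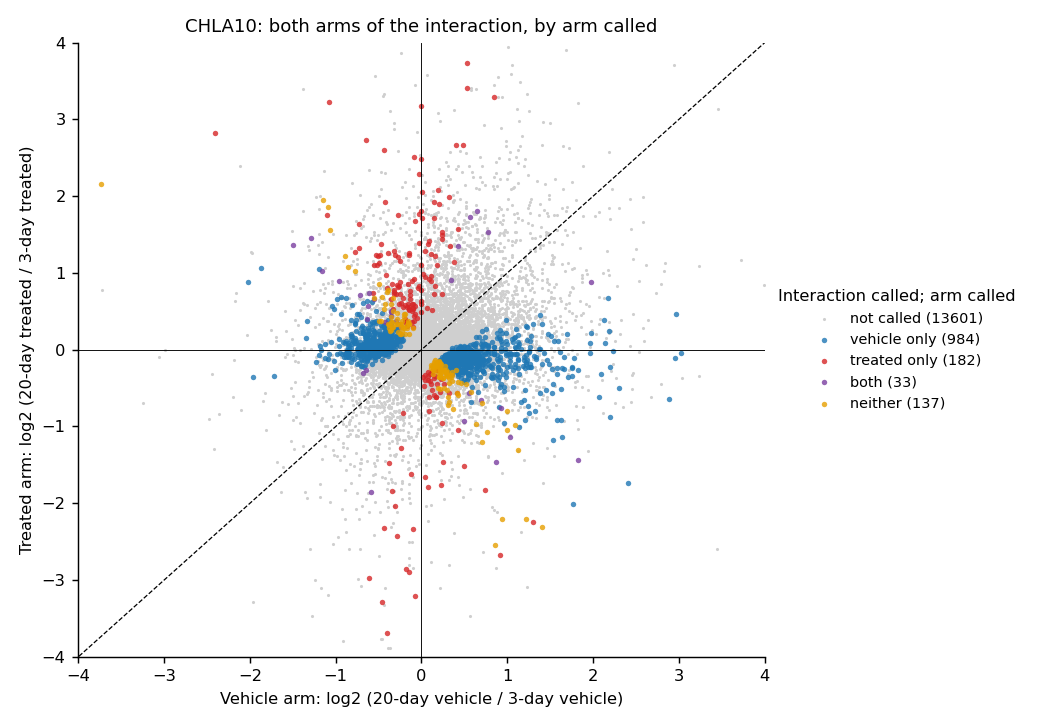
Log2 change of each tested gene in the vehicle arm (x axis) and the treated arm (y axis), coloured by which arm was called for the 1336 interaction-called genes; the dashed line marks equal arms, and 36 genes, 9 of them called, lie outside the axes. The 984 genes with only the vehicle arm called spread along the x axis near a treated-arm value of 0, and the 182 with only the treated arm called spread along the y axis.

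The count of called genes rested on single libraries, while the share by arm moved less. It was 477 without 20-day vehicle replicate 1, 358 without replicate 2 and 3152 without replicate 3. It was 402 without 3-day treated replicate 1, 521 without replicate 2, and 463, 364 and 382 without 3-day vehicle replicates 1, 2 and 3. Without both 20-day replicate 3 libraries it was 4105, of which 2054 were higher and 2051 lower. At 20 days same-numbered treated and vehicle libraries deviated together, and with the pairs within each time as a block the interaction was called for 1556 genes higher and 1509 lower. Over the settings that give both arms, the vehicle arm was the larger for 70.6% to 79.8% of called genes, except for 58.3% where an absolute log2 change of at least 1 was also asked.

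Large gains were an exception to the weight of the vehicle arm. Among the 139 genes at least 2-fold higher in the interaction, the treated arm alone was called for 74 (53.2%) and the vehicle arm alone for 40 (28.8%). Among the 199 at least 2-fold lower, the treated arm alone was called for 28 (14.1%) and the vehicle arm alone for 145 (72.9%). The share of genes with the treated arm larger was 66.9% for the gains and 24.1% for the losses. The difference between these shares was not tested.

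By their treatment effects, 477 of the 1336 genes were called at 3 days only and 533 at 20 days only, and the vehicle arm alone was called for 374 and 389 of them. The effect had opposite calls at the 2 times for 152 genes, of which 70 were lower with treatment at 3 days and higher at 20 days, and 82 the reverse. Of these 152, the vehicle arm alone was called for 130 and the treated arm alone for 11. For the 1336 genes as a whole the vehicle arm alone was called for 984 (73.7%). Differences between these classes in the arm called were not tested. Where both times were called in the same direction (164 genes), the effect was larger at 20 days for 109 and smaller for 55.

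Replication genes showed the pattern most fully. Of 50 G1/S and replication genes, which build and fire replication origins and supply nucleotides, the interaction was called higher for 33 (66%, against 4.25% of all genes) and lower for 0. Each of the 33 had the vehicle arm alone called. In the vehicle arm 46 of 50 fell (median log2 -0.56, against 0.05 over all genes), and in the treated arm 0 were called in either direction by edgeR, limma-voom or DESeq2 (median 0.01; 8 had an unadjusted p under 0.05, 4 of them higher). The effect of BMS-986158 on the list was lower at 3 days for 31 genes (62%, against 18.4% of all genes) and higher for 0. At 20 days it was higher for 23 and lower for 1 (48% called, against 40.5% of all genes). Of all genes 19.9% were higher and 20.6% lower at 20 days. The median effect on the list was -0.33 at 3 days and 0.20 at 20 days. The mean level of the list relative to 3-day vehicle was -0.39, -0.38 and -0.32 log2 in the 3-day treated libraries, -0.35, -0.30 and -0.37 in the 20-day treated, and -0.70, -0.67 and -0.42 in the 20-day vehicle libraries. Treated cells thus sat at a like level at both times, and each 20-day vehicle library lay below every other library. Replicate 3 of 20-day vehicle was the closest to the treated groups. The count of 33 was 20 without 20-day vehicle replicate 2, 19 without 3-day treated replicate 1, 20 without 3-day vehicle replicate 3 and 48 without both 20-day replicate 3 libraries, and the median interaction of 0.59 ranged from 0.56 to 0.64 as each library was left out.

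**Figure D2:**
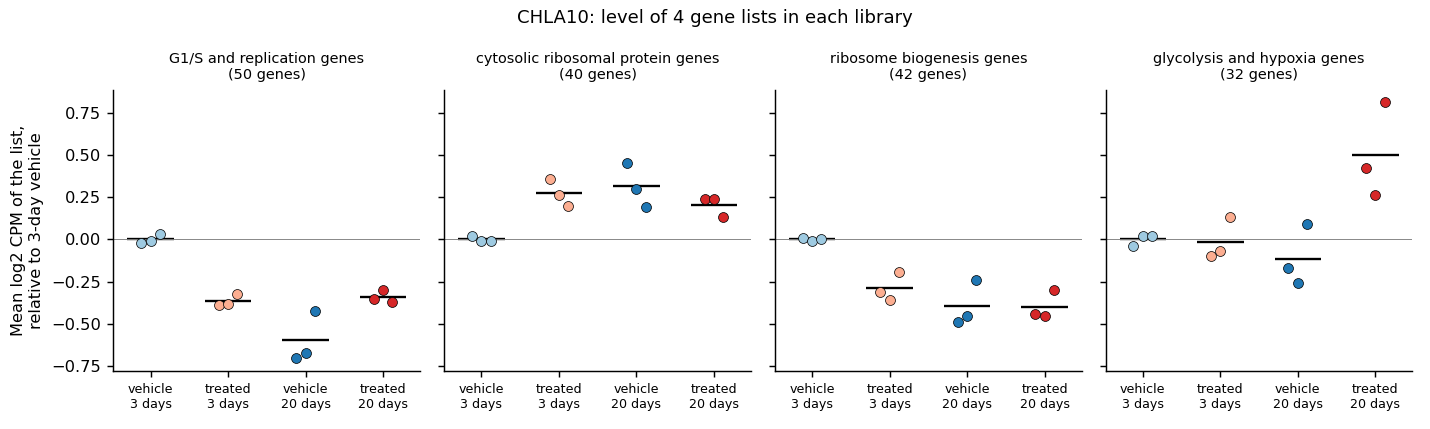
Mean log2 CPM of 4 gene lists in each CHLA10 library, relative to the mean of 3-day vehicle (points, libraries; lines, group means; n = 3 per group). For G1/S and replication genes the 20-day vehicle libraries are the lowest, at -0.70, -0.67 and -0.42, and the glycolysis and hypoxia genes are highest in 20-day treated libraries.

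Sequences of 4 promoters of this list are shown because the genes moved together and their promoters hold the E2F-type word TTTNNCGC, in capitals (on either strand; overlapping matches are joined). They come from RefSeq (GRCh38.p14), read 5′ to 3′ on the gene's strand, and are limited to bases before the annotated exons: E2F1 at chr20:33686405-33686464 (-), E2F2 at chr1:23531234-23531317 (-), PCNA at chr20:5126628-5126727 (-) and MCM6 at chr2:135876476-135876575 (-).
E2F1: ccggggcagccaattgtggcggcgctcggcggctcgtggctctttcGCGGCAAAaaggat
E2F2: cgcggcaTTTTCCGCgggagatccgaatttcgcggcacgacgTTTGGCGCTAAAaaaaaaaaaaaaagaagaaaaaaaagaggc
PCNA: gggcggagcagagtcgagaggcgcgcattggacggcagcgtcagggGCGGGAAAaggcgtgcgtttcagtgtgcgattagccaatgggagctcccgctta
MCM6: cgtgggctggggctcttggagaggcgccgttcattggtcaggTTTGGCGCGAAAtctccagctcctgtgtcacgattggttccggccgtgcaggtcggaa
In the 250 bases before the start, TTTNNCGC was found on either strand in 18 of the 43 G1/S promoters in the table (41.9%), in 3 of 38 promoters of G2/M genes (7.89%) and in 1010 of 11461 promoters of tested genes (8.81%), or 5.93% of all 27305 promoters. It was in 13 of 28 promoters of G1/S genes called in the interaction (46.4%) and in 5 of 15 of those not called (33.3%). TTTGAA, the core of the CHR element of mitotic promoters, was in 21 of 38 G2/M promoters (55.3%), 1 of 43 G1/S promoters (2.33%) and 8.38% of those of tested genes. These matches describe the letters and are not evidence of binding.

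E2F1, the factor that activates S-phase genes, had 206, 220 and 231 CPM in 3-day vehicle, 138, 159 and 171 in 3-day treated, 84, 89.5 and 128 in 20-day vehicle and 159, 154 and 177 in 20-day treated libraries. Its treated groups overlapped between times, and every 20-day vehicle library lay below all others. The interaction was 1.19 ± 0.19 log2 (SE; adjusted p = 0.00815), with a vehicle arm of -1.12 ± 0.14 (adjusted p = 0.000522) and a treated arm of 0.07 ± 0.14 (adjusted p = 0.831). The effect of treatment thus had opposite calls: it was -0.49 at 3 days (adjusted p = 0.0139) and 0.70 at 20 days (adjusted p = 0.00159).

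CLSPN, the checkpoint mediator claspin, had 117, 110 and 112 CPM in 3-day vehicle and 38.9, 49 and 56.8 in 20-day vehicle, against 98.2, 93.1 and 128 in 3-day treated and 89.2, 99.6 and 96.2 in 20-day treated libraries. Its 20-day vehicle values were separate from all the rest (interaction 1.07 ± 0.19, adjusted p = 0.0104). The origin licensing helicase subunits MCM2 to MCM7, which open DNA ahead of the fork, were called together, with interactions from 0.59 for MCM3 to 0.85 for MCM5 and vehicle arms from -0.51 for MCM2 to -0.66 for MCM5. PCNA, the sliding clamp, had an interaction of 0.73 and E2F2, a second activator, 0.98. CCNE2, a cyclin of S-phase entry, and E2F8, a late E2F repressor, had interactions of 1.19 and 1.15. The calls of E2F1 and CLSPN held with each of the 12 libraries left out, while CCNE2 lost its call without 3-day treated replicate 1 or 2 or 3-day vehicle replicate 2 or 3 (highest adjusted p = 0.061) and E2F8 without 20-day vehicle replicate 1, 3-day treated replicate 1 or 3-day vehicle replicate 3 (0.0567).

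**Figure D3:**
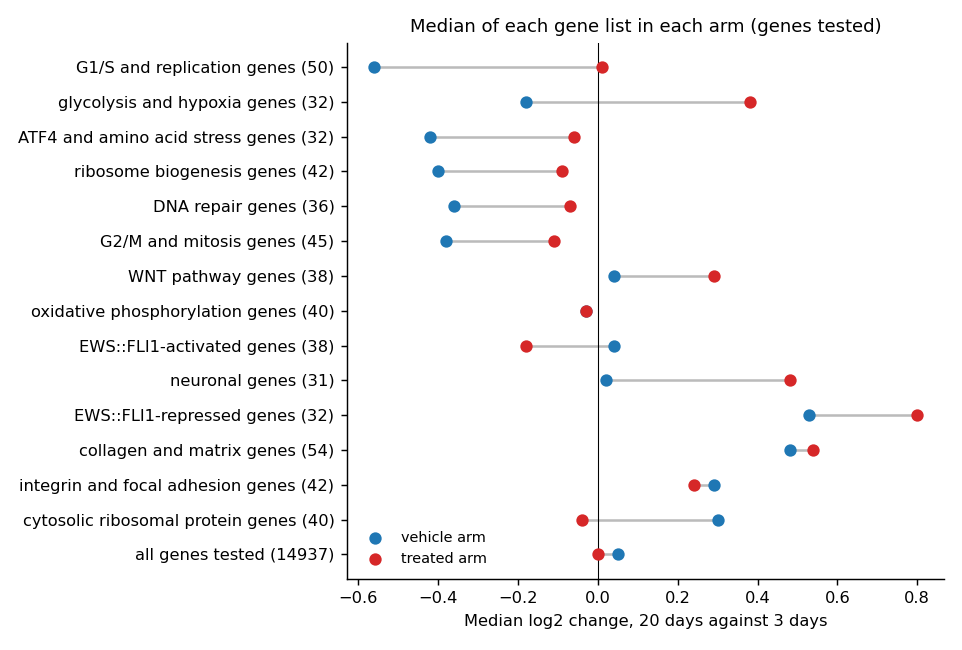
Median log2 change between 20 and 3 days of the tested members of each gene list, in the vehicle arm (blue) and the treated arm (red), with all genes tested as the last line. The G1/S and replication genes have medians of -0.56 and 0.01, and cytosolic ribosomal protein genes 0.30 and -0.04.

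Mitotic and DNA repair genes shifted the same way in the vehicle arm, with fewer calls. Of 45 G2/M and mitosis genes, 8 were called higher in the interaction (17.8%, against 4.25% of all genes) and 0 lower (median 0.20). All 8 had the vehicle arm alone called, and 25 of 45 fell in that arm (55.6%, against 10.1% of all genes). Unlike for the G1/S genes, the 20-day groups overlapped in the mean level of the list relative to 3-day vehicle. It was -0.50, -0.44 and -0.18 log2 in 20-day vehicle and -0.18, -0.16 and -0.35 in 20-day treated libraries. In replicate 3 the treated library was the lower. BIRC5 (survivin) had 227, 229 and 234 CPM in 3-day vehicle, 186, 192 and 171 in 3-day treated, 151, 135 and 169 in 20-day vehicle and 212, 199 and 173 in 20-day treated libraries, and INCENP, its partner in the chromosomal passenger complex, fell by 0.73 in the vehicle arm (interactions 0.69 and 0.67, adjusted p = 0.0131 for both). The 20-day vehicle libraries of BIRC5 were the lowest of all. The interaction count of the G2/M list was 2 to 5 without 20-day treated replicate 1 or 2, 20-day vehicle replicate 1 or 2 or any 3-day library, 15 without 20-day vehicle replicate 3 and 25 without both 20-day replicate 3 libraries. Of 36 DNA repair genes 6 were called higher (16.7%, against 4.25% of all genes) and 0 lower. In the vehicle arm 18 fell and 1 rose (52.8% called, against 21.9% of all genes). In the treated arm 0 were called by edgeR, limma-voom or DESeq2 (6 at an unadjusted p under 0.05). The interaction count of 6 was 0 to 2 without any single library other than the 20-day replicate 3 libraries, 11 and 13 without those of treated and of vehicle cells, and 16 without both.

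Within the MYC network of 12 genes, 3 were called lower in the interaction (25%, against 4.69% of all genes) and 0 higher, with the vehicle arm alone called for each. MXD4, a MAX partner that opposes MYC, had 50.2, 52 and 51 CPM in 3-day vehicle, against 86.2, 97.5 and 102 in 3-day treated, 116, 109 and 98.6 in 20-day vehicle and 93.6, 98.2 and 82.8 in 20-day treated libraries. The 3-day vehicle group stood apart, below all 9 other libraries. The interaction of MXD4 was -1.14 ± 0.12 (adjusted p = 0.00251) with a vehicle arm of 1.08 ± 0.09. MXI1, of the same family, rose by 1.33 in the vehicle arm (interaction -1.42 ± 0.31, adjusted p = 0.0212). MYC itself was at 345 to 366 CPM in 3-day vehicle and 412 to 483 in 20-day vehicle, and at 391 to 419 and 343 to 376 in treated cells (interaction -0.49 ± 0.11, adjusted p = 0.019). The list's count was 1 without 20-day vehicle replicate 1, 3-day treated replicate 1 or 2 or any 3-day vehicle library, MXD4 being called in every one of the 12 fits, and MXI1 also lost its call without 20-day vehicle replicate 2 (highest adjusted p = 0.0629).

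Ribosomal genes moved in opposite directions by kind. Of 40 cytosolic ribosomal protein genes 17 were called lower in the interaction (42.5%, against 4.69% of all genes) and 0 higher (median -0.38). In the vehicle arm 24 rose (60%, against 11.9% of all genes) and 0 fell (median 0.30), and in the treated arm 1 fell (median -0.04). Treatment effects on the list were higher for 22 genes and lower for 0 at 3 days (55% called, against 37.7% of all genes). At 20 days they were higher for 1 and lower for 8. That is 22.5% called, below the 40.5% of all genes, of which 20.6% were lower. RPL30 had 78.4, 67.9 and 63 CPM in 3-day vehicle, 84.8, 62.7 and 76.7 in 3-day treated, 186, 168 and 155 in 20-day vehicle and 77.4, 91.4 and 85 in 20-day treated libraries (interaction -1.10 ± 0.17, adjusted p = 0.00648; 0.137 in a fit of all 30 libraries). For RPL30 the 20-day vehicle libraries were above all others, but for the list they overlapped both treated groups. The mean level of the list relative to 3-day vehicle was 0.45, 0.30 and 0.19 log2 in 20-day vehicle libraries. It was 0.36, 0.26 and 0.20 in 3-day treated and 0.24, 0.24 and 0.13 in 20-day treated libraries. RPL22 and RPL23 had interactions of -0.77 and -0.74. Ribosomal protein genes have many near-identical processed copies, so single values are uncertain. The count of 17 was 6 to 8 without 20-day vehicle replicate 1 or 2, 3-day treated replicate 1 or 2 or any 3-day vehicle library, 11 without 20-day treated replicate 1, 28 without 20-day vehicle replicate 3, 8 in the fit of all 30 libraries and 26 with the replicate block within time. The vehicle-arm count of 24 was 9 and 14 without 20-day vehicle replicates 1 and 2, and 14, 10 and 12 without 3-day vehicle replicates 1, 2 and 3.

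Ribosome biogenesis genes, which make and process ribosomal RNA, fell in the vehicle arm in 28 of 42 cases with 0 higher (66.7%, against 10.1% of all genes, median -0.40). In the treated arm 0 were called by edgeR or limma-voom (median -0.09), 1 by DESeq2 and 4 at an unadjusted p under 0.05. The interaction was called higher for 6 (14.3%, against 4.25% of all genes) and lower for 0 (median 0.30). UTP20, a processome component, had 135, 136 and 119 CPM in 3-day vehicle, and 71.4 to 83.3 in 3-day treated, 76.3 to 89.4 in 20-day vehicle and 69.6 to 76.4 in 20-day treated cells (interaction 0.63 ± 0.13, adjusted p = 0.0135; 0.25 in the fit of all 30 libraries). As for MXD4, 3-day vehicle stood apart and the 3 other groups lay together. The vehicle-arm count of 28 was 17 without 20-day vehicle replicate 1 or 2. The interaction count of 6 was 1 to 3 without any single library other than 20-day treated replicate 3, 3-day treated replicate 3 and 20-day vehicle replicate 3, 21 without the last, 16 with the replicate number as a block and 20 with the block within time.

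Sugar metabolism drew on both arms. Of 32 glycolysis and hypoxia genes 11 were called higher in the interaction (34.4%, against 4.25% of all genes) and 0 lower (median 0.68). The vehicle arm alone was called for 8 of the 11, the treated arm alone for 2 and neither for 1. In the treated arm 8 of 32 rose (25%, against 3.69% of all genes) and 0 fell (median 0.38). In the vehicle arm 4 rose and 9 fell (40.6% called, against 21.9% of all genes, median -0.18). HK2, the hexokinase that starts glycolysis, had 57.4, 54.6 and 60.2 CPM in 3-day vehicle, 45.8, 51.3 and 50.4 in 3-day treated, 31, 32.8 and 36.4 in 20-day vehicle and 65, 67.3 and 53.7 in 20-day treated libraries. The 20-day vehicle libraries were the lowest. Its interaction was 1.11 ± 0.14 (adjusted p = 0.00286), with -0.78 ± 0.10 in the vehicle arm (adjusted p = 0.000522) and 0.33 ± 0.10 in the treated arm (adjusted p = 0.0657). PGAM1 and LDHA, of lower glycolysis and lactate formation, had interactions of 0.98 and 0.94, and SLC2A1, the glucose transporter GLUT1, 0.87, which lost its call without 3-day treated replicate 1 or 3-day vehicle replicate 2 or 3 (highest adjusted p = 0.0533). Among hypoxia-responsive members, EGLN3 and P4HA2 rose in the treated arm by 1.86 and 2.59 log2, and their interactions of 2.01 and 2.14 were not called. The count of 11 was 7 without 3-day treated replicate 1 or 3-day vehicle replicate 2 or 3, and the treated-arm count of 8 was 4 or 5 without any single 3-day library. The 4 that rose in the vehicle arm were 1 or 2 without 20-day vehicle replicate 1 or 2 or any 3-day vehicle library.

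Of 32 genes of the ATF4 response to amino acid shortage, 7 were called higher in the interaction and 1 lower (25% called, against 8.94% of all genes). In the vehicle arm 15 fell and 1 rose (50% called, against 21.9% of all genes). PSAT1, of serine synthesis, had 135, 137 and 147 CPM in 3-day vehicle, 109, 110 and 124 in 3-day treated, 57.4, 49.5 and 77.2 in 20-day vehicle and 111, 93.5 and 121 in 20-day treated libraries (interaction 1.12 ± 0.20, adjusted p = 0.0106; 0.109 in the fit of all 30 libraries). Every 20-day vehicle library of PSAT1 was below the rest, but for the list the 20-day vehicle libraries overlapped both treated groups. The mean level of the list relative to 3-day vehicle was -0.46, -0.50 and -0.31 log2 in 20-day vehicle libraries. In 3-day treated libraries it was -0.48, -0.47 and -0.21, and in 20-day treated libraries -0.47, -0.59 and -0.51. SLC7A1, an importer of arginine and lysine, had 58 to 60.8 CPM in 3-day vehicle and 25.1 to 41.2 in 20-day vehicle, against 20.4 to 27 and 27.6 to 34.9 in treated cells (interaction 1.41 ± 0.24, adjusted p = 0.0097). The count of 7 was 2 to 4 without 20-day treated replicate 1, 20-day vehicle replicate 1 or 2, 3-day treated replicate 1 or 2 or any 3-day vehicle library, 13 without 20-day vehicle replicate 3, 2 in the fit of all 30 libraries, and 12 and 13 with the replicate number and the pairs within time as a block. The vehicle-arm count of 15 was 9 without 3-day vehicle replicate 3.

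Single genes with the largest losses in the interaction mostly rose in 20-day vehicle cells. Here and below, genes with the highest and lowest interactions were named only if the groups of their larger arm did not overlap. That separation between the times is thus fixed by the rule and is not a finding. YPEL3, of the yippee-like family, had 6.25, 8.36 and 8.18 CPM in 3-day vehicle, 8.37, 7.52 and 6.58 in 3-day treated, 25.8, 21.6 and 18.2 in 20-day vehicle and 5.15, 6.77 and 4.47 in 20-day treated libraries. Its 20-day vehicle libraries were above all others, which lay together. The vehicle arm was 1.53 ± 0.19 (adjusted p = 0.000522) and the treated arm -0.45 ± 0.19 (adjusted p = 0.206), for an interaction of -1.98 ± 0.27 (adjusted p = 0.00436). The effect of treatment was -0.02 at 3 days (adjusted p = 0.942) and was called lower at 20 days (adjusted p = 8.24e-06).

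ABTB1, a BTB-domain protein, had 4.63, 4.58 and 6 CPM in 3-day vehicle, 8.12, 9.07 and 8.32 in 3-day treated, 26.7, 25.5 and 17.2 in 20-day vehicle and 8.13, 10.9 and 11.1 in 20-day treated libraries. Treated cells kept to a narrow band while vehicle cells moved from below it to above it, so the treatment effect had opposite calls, 0.74 at 3 days and -1.21 at 20 days (adjusted p = 0.00939 and 0.000251). CALCOCO1, a coiled-coil protein with roles in transcription and selective autophagy, had the same form, with 59.2 to 66.6 CPM in 3-day vehicle, 128 to 224 in 20-day vehicle and 81.3 to 112 over the 6 treated libraries. Its interaction was -1.89 ± 0.22 (adjusted p = 0.00286).

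TCP11L2 had 1.62, 2.06 and 3.31 CPM in 3-day vehicle and 12, 13.4 and 6.93 in 20-day vehicle, with 2.05 to 4.1 in treated cells at either time (vehicle arm 2.20 ± 0.33, interaction -2.43 ± 0.46, adjusted p = 0.0131). GNG7, a G protein gamma subunit, had 1.8, 1.66 and 1.66 CPM in 3-day vehicle, 8.9, 8.73 and 4.95 in 20-day vehicle and 5.91 to 11.6 in the treated libraries. For GNG7 the treated effect was 2.37 at 3 days and 0.31 at 20 days (adjusted p = 0.398), and of the 4 groups the 3-day vehicle libraries alone were low. BMF, a BH3-only promoter of cell death, shared that form, with 24.2 to 26.3 CPM in 3-day vehicle and 46.5 to 86.8 in the other 9 libraries (interaction -1.67 ± 0.25, adjusted p = 0.00723). SELENOP, a selenium carrier, and ABI3BP, a matrix protein, rose in the vehicle arm by 1.63 and 1.78 (interactions -2.55 and -1.89, adjusted p = 0.0375 and 0.0223). The calls of YPEL3, ABTB1, CALCOCO1, TCP11L2, GNG7 and BMF held with each library left out, SELENOP lost its call in 9 of the 12 fits (every one but those without 20-day treated replicate 2 or 3 or 20-day vehicle replicate 3, highest adjusted p = 0.0982), and ABI3BP in 7 (without 20-day vehicle replicate 1 or 2, 3-day treated replicate 1 or 2, or any 3-day vehicle library, 0.0667).

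The highest interactions carried by the vehicle arm alone were LRP8, STC1, FKBP5, FAM222A and SLC7A1. LRP8, a receptor for reelin and apolipoprotein E, had 11.8, 11.4 and 11.6 CPM in 3-day vehicle and 4.31, 3.66 and 5.88 in 20-day vehicle, against 7.63 to 13.8 in the treated libraries (interaction 1.71 ± 0.28, adjusted p = 0.00809). STC1, a secreted glycoprotein, and FKBP5, a cochaperone of steroid receptors, fell by 1.04 and 0.88 in the vehicle arm, and their interactions were 1.61 ± 0.32 and 1.55 ± 0.30. FAM222A had 11.4 to 12.3 CPM in 3-day vehicle and 3.28 to 6.35 in 20-day vehicle libraries (interaction 1.50 ± 0.34, adjusted p = 0.0226). In LRP8 and FAM222A the 20-day vehicle libraries were below all others. FAM222A lost its call without 20-day vehicle replicate 1 or 2, 3-day treated replicate 1 or 2 or any 3-day vehicle library (highest adjusted p = 0.0655) and in the fit of all 30 libraries (0.0787), and the other 4 genes held without each library.

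**Figure D4:**
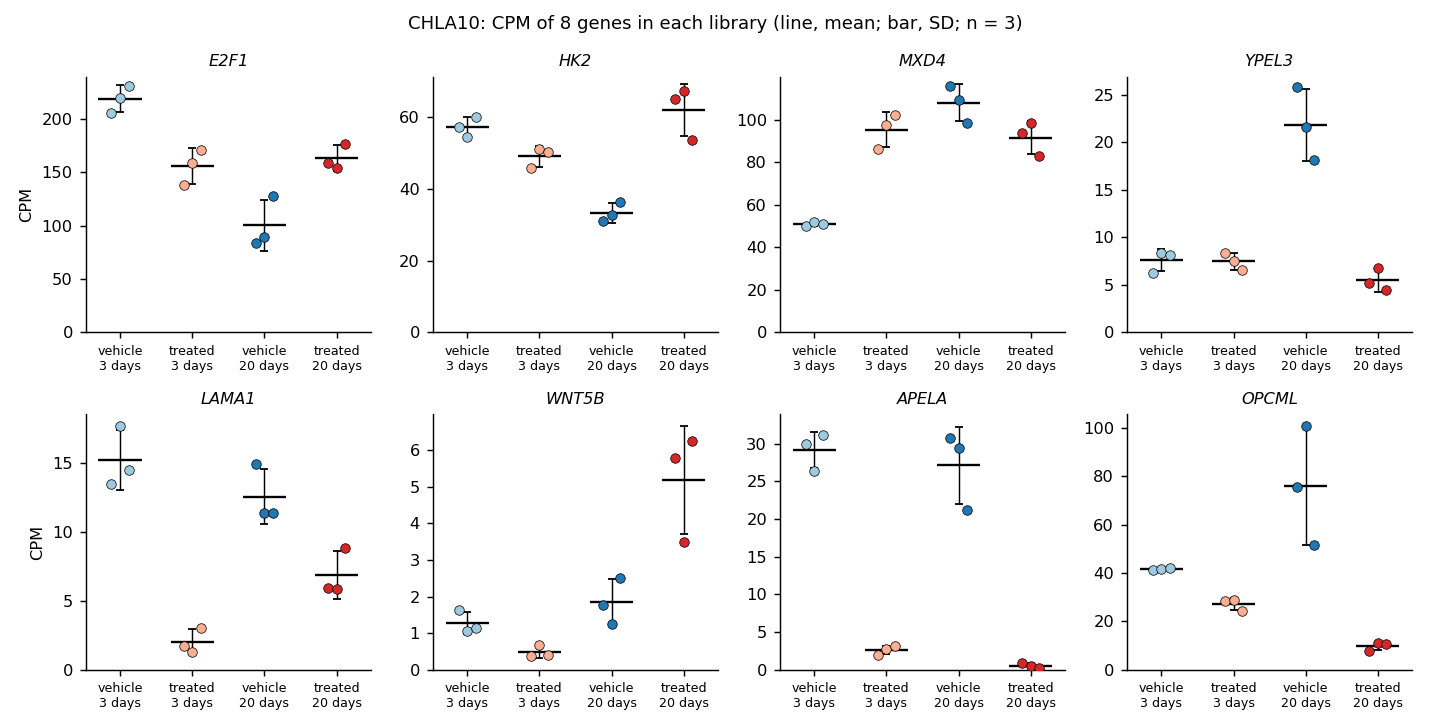
CPM of 8 genes in each CHLA10 library (points; line, mean; bar, SD; n = 3 per group; y axes start at 0). The vehicle groups differ in the upper row (E2F1, HK2, MXD4, YPEL3), the treated groups differ for LAMA1, WNT5B and APELA, and both do for OPCML.

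Gains in the treated arm included secreted signals and matrix. LAMA1, the laminin alpha-1 chain of basement membranes, had 13.5, 17.7 and 14.5 CPM in 3-day vehicle, 1.75, 1.32 and 3.04 in 3-day treated, 14.9, 11.4 and 11.4 in 20-day vehicle and 5.91, 5.83 and 8.85 in 20-day treated libraries. Treated cells were below vehicle at both times and the 20-day values lay between. The treated arm was 1.75 ± 0.28 (adjusted p = 0.00359), the vehicle arm -0.27 ± 0.25 (adjusted p = 0.46) and the interaction 2.02 ± 0.37 (adjusted p = 0.0118), and the loss relative to vehicle was -2.90 at 3 days and -0.88 at 20 days. SIRPA, the inhibitory receptor that binds CD47, was also lowest in 3-day treated cells, but its 20-day treated and vehicle libraries overlapped, with 14.8 to 15.8 CPM in 3-day vehicle, 2.33 to 3.05 in 3-day treated, 12.1 to 21.5 in 20-day vehicle and 6.35 to 14.6 in 20-day treated libraries (treated arm 1.92 ± 0.29, interaction 1.77 ± 0.39, adjusted p = 0.0196).

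TIMP1, an inhibitor of matrix metalloproteases, was lower with treatment at 3 days (21.1, 22.5 and 18.3 CPM against 36.3, 38.5 and 38.9) and overlapped vehicle at 20 days (56.8, 42.5 and 69.1 against 41.3, 39.1 and 54.3). Its treated arm was 1.44 ± 0.17 (adjusted p = 0.000974) and its interaction 1.20 ± 0.23 (adjusted p = 0.0135). FJX1, a secreted four-jointed homologue, had 43.9, 45.1 and 50.4 CPM in 3-day treated and 112, 80.2 and 137 in 20-day treated cells, against 53.1 to 61.3 and 30.6 to 56.1 in vehicle (interaction 1.72 ± 0.31, adjusted p = 0.0135). OSBPL6, a lipid-binding protein of the OSBP family, was already higher with treatment at 3 days and rose further. It had 1.92 to 2.95 CPM in 3-day vehicle, 12.8 to 13.8 in 3-day treated, 0.916 to 2.33 in 20-day vehicle and 30.2 to 35.5 in 20-day treated libraries (interaction 2.04 ± 0.34, adjusted p = 0.00874). ADCY1, an adenylyl cyclase, went from 10.2 to 13.7 CPM in 3-day treated cells to 23.2 to 34 in 20-day treated cells (interaction 1.65 ± 0.38, adjusted p = 0.0239). The treated arm alone was also called for CHD7, a chromatin remodeller (interaction 1.76), TMEM200C (1.73) and CACNG4, a calcium channel subunit (1.54).

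The calls of LAMA1, TIMP1, FJX1, OSBPL6 and CACNG4 held with each library left out. SIRPA lost its call without 3-day treated replicate 1 or 3-day vehicle replicate 2 (highest adjusted p = 0.0626). CHD7 lost it without 20-day vehicle replicate 2, 3-day treated replicate 1 or 3-day vehicle replicate 2 (0.0614). ADCY1 lost it without 20-day vehicle replicate 1 or 2, 3-day treated replicate 1 or 2 or any 3-day vehicle library (0.0701), and TMEM200C without 20-day vehicle replicate 1 or 2, 3-day treated replicate 1 or 2 or 3-day vehicle replicate 1 or 3 (0.0689).

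Of 38 WNT pathway genes 4 were called higher in the interaction and 0 lower (median 0.20). That is 10.5% of the list, close to the 8.94% of all genes. For all 4 the treated arm alone was called, an arm in which 5 members of the list rose and 2 fell (18.4% called, against 5.01% of all genes). The 5 were 2 or 3 without 20-day vehicle replicate 1 or any 3-day library, and the 2 were 0 or 1 without any single library other than 20-day treated replicate 1 and 20-day vehicle replicate 3. The 4 with a called interaction were the ligands WNT5B and WNT5A, their receptor ROR2, a receptor tyrosine kinase of non-canonical WNT signalling, and the receptor FZD5. WNT5B had 1.62, 1.06 and 1.14 CPM in 3-day vehicle, 0.367, 0.683 and 0.403 in 3-day treated, 1.77, 1.25 and 2.5 in 20-day vehicle and 5.79, 3.5 and 6.26 in 20-day treated libraries. It was the lowest of the 4 groups in 3-day treated cells and the highest in 20-day treated cells, and neither of these groups overlapped another. The treated arm was 3.41 ± 0.37 (adjusted p = 0.000785) and the interaction 2.88 ± 0.51 (adjusted p = 0.0104). ROR2 had 1.84, 2.28 and 2.19 CPM in 3-day treated and 5.95, 6.17 and 9.43 in 20-day treated libraries, against 2.74 to 4.08 in vehicle (interaction 1.80 ± 0.36, adjusted p = 0.0135). WNT5A had 55.8 to 60.8 CPM in 3-day treated and 64.5 to 126 in 20-day treated libraries (interaction 1.31 ± 0.27, adjusted p = 0.0187). AXIN2, a target of canonical WNT signalling, had an interaction of 0.37 that was not called. The list's count of 4 was 2 without 20-day vehicle replicate 2 or 3-day treated replicate 1, where WNT5A and FZD5 lost their calls, and 9 with the replicate block within time. FZD5 also lost its call without 20-day vehicle replicate 1, 3-day treated replicate 2 or any 3-day vehicle library (highest adjusted p = 0.0869).

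Most losses described in the treated arm deepened an effect already called at 3 days. APELA, a secreted ligand of the apelin receptor, had 29.9, 26.4 and 31.1 CPM in 3-day vehicle, 2, 2.73 and 3.09 in 3-day treated, 30.7, 29.4 and 21.2 in 20-day vehicle and 0.832, 0.526 and 0.167 in 20-day treated libraries. The vehicle groups overlapped and the treated groups did not, the latter as the naming rule required (treated arm -2.33 ± 0.35, adjusted p = 0.00308, and interaction -2.22 ± 0.43, adjusted p = 0.0135). CCND2, cyclin D2, had 44.4, 47.7 and 47.8 CPM in 3-day vehicle, 8.08, 8.66 and 18.9 in 3-day treated, 55.9, 50.1 and 27.5 in 20-day vehicle and 1.98, 1.28 and 0.543 in 20-day treated libraries. Its treated arm was -3.21 ± 0.48 (adjusted p = 0.00554), its vehicle arm -0.07 ± 0.38 (adjusted p = 0.922) and its interaction -3.15 ± 0.61 (adjusted p = 0.0181). Replicate 3 was the highest of the 3-day treated and the lowest of the 20-day vehicle libraries.

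STC2, a secreted glycoprotein of the ATF4 list, had 97.4 to 103 CPM in 3-day vehicle, 20 to 29 in 3-day treated, 89.3 to 117 in 20-day vehicle and 4.17 to 8.44 in 20-day treated libraries (interaction -1.87 ± 0.30, adjusted p = 0.00961). CSMD3, a large CUB and sushi domain protein, had 4.24 to 6.98 CPM in 3-day treated and 1.42 to 1.8 in 20-day treated libraries, and 10.2 to 18.8 over the 6 vehicle libraries (interaction -1.99 ± 0.34, adjusted p = 0.00942). SEMA3C, a secreted guidance signal, differed in timing. At 3 days treated (78.7, 71.2 and 107 CPM) and vehicle (88.7, 88.2 and 88.4) overlapped, and at 20 days treated (22.2, 24.6 and 34.6) lay below vehicle (102, 109 and 61.8), for an interaction of -1.70 ± 0.33 (adjusted p = 0.0158). IGF1, a growth factor for Ewing sarcoma cells, had 4.65 to 6.71 CPM in 3-day treated and 1.69 to 3.09 in 20-day treated libraries, against 37 to 45.7 and 32.9 to 38.8 in vehicle (interaction -1.04 ± 0.26, adjusted p = 0.0319).

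APELA, STC2, CSMD3 and SEMA3C kept their calls with each library left out. SEMA3C lost its call with the replicate block within time. CCND2 lost its call without 20-day vehicle replicate 2 or 3-day vehicle replicate 2 or 3 (highest adjusted p = 0.0518), and IGF1 in 9 of 12 fits (every one but those without 20-day treated replicate 3, 20-day vehicle replicate 3 or 3-day treated replicate 2, 0.0923).

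A few genes had both arms called, in opposite directions. OPCML, a GPI-anchored adhesion protein of the IgLON family, had 41.2, 41.9 and 42.1 CPM in 3-day vehicle, 28.5, 28.8 and 24.3 in 3-day treated, 75.8, 101 and 51.6 in 20-day vehicle and 7.81, 11.2 and 10.6 in 20-day treated libraries. The 4 groups did not overlap (treated arm -1.46, vehicle arm 0.87, interaction -2.33 ± 0.29, adjusted p = 0.00376). NCR3LG1, the ligand of the natural killer cell receptor NKp30, ran the other way, with 12.2 to 14.3 CPM in 3-day vehicle, 5.51 to 10.5 in 3-day treated, 5.4 to 6.7 in 20-day vehicle and 10.4 to 20.1 in 20-day treated libraries (interaction 2.18 ± 0.38, adjusted p = 0.00951). C3orf70 had 3.21 to 5.03 CPM in 3-day vehicle, 4.57 to 7.38 in 3-day treated, 2.07 to 2.44 in 20-day vehicle and 10.6 to 12 in 20-day treated libraries, for an interaction of 1.87 ± 0.31 (adjusted p = 0.00815). H2AC6, a replication-type histone H2A gene, had 2.4 to 3.78 CPM in 3-day vehicle, 13.2 to 21.5 in 3-day treated, 5.82 to 16.6 in 20-day vehicle and 5.91 to 7.93 in 20-day treated libraries (interaction -3.26 ± 0.46, adjusted p = 0.00578). H2BC5, a histone H2B gene, had an interaction of -1.98 with the vehicle arm alone called. Histone genes have near-identical copies, and poly(A) selection keeps few of their transcripts, so these values are uncertain. For B4GALNT1, the ganglioside GM2 and GD2 synthase (interaction 2.10, adjusted p = 0.025), and CEBPD, a bZIP transcription factor (1.81, adjusted p = 0.0238), neither arm was called alone. Both lost the interaction call in 7 of 12 fits, without 20-day vehicle replicate 1 or 2, 3-day treated replicate 1 or 2 or any 3-day vehicle library (highest adjusted p = 0.0774 and 0.0714).

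The 9 BET inhibition markers had a median interaction of -0.81, with 1 of 9 above 0. At 3 days 8 of them were called higher with treatment and 1, CCND2, lower. A negative interaction is thus a deeper loss for CCND2 and a smaller or reversed rise for the others, and the median pools both. Called lower were CCND2, MYC and IZUMO4 (33.3%, against 4.69% of all genes) and 0 were called higher. In the vehicle arm 4 of the 9 rose (44.4%, against 11.9% of all genes). MYC had opposite calls, 0.21 at 3 days (adjusted p = 0.0422) and -0.28 at 20 days (adjusted p = 0.0104). SESN3, a stress-induced sestrin, had effects of 3.96 and 2.64 and rose by 1.92 in the vehicle arm (adjusted p = 0.00272), with an interaction of -1.32 ± 0.40 (adjusted p = 0.0645). SERPINI1, neuroserpin, rose by 1.24 in the vehicle arm (interaction -1.17 ± 0.47, adjusted p = 0.129), and TXNIP, an inhibitor of thioredoxin, had an interaction of -1.27 ± 1.04 (adjusted p = 0.463). HEXIM1 had 84.3 to 95.3 CPM in 3-day vehicle, 173 to 205 in 3-day treated, 97.9 to 106 in 20-day vehicle and 140 to 181 in 20-day treated libraries, and its effect was 1.06 at 3 days and 0.66 at 20 days (interaction -0.41 ± 0.14, adjusted p = 0.0758). Outside this list, BRD2, a BET protein gene, had effects of 0.53 and 0.38 (interaction -0.15 ± 0.10, adjusted p = 0.371). KRT17, which has near-identical copies, had effects of -6.10 and -6.06 (interaction 0.04 ± 0.71, adjusted p = 0.98). MYC lost its call without 20-day vehicle replicate 1, 3-day treated replicate 1 or 2 or any 3-day vehicle library (highest adjusted p = 0.0672), and IZUMO4 in 8 of 12 fits (every one but those without a replicate 3 library, 0.11), in the fit of all 30 libraries (0.26) and with limma-voom (0.0613). Of 38 EWS::FLI1-activated genes 3 were called higher and 4 lower in the interaction (18.4% called, against 8.94% of all genes). The treatment effect was lower for 24 and higher for 2 at 3 days (68.4% called, against 37.7% of all genes). It was lower for 22 and higher for 1 at 20 days (60.5%, against 40.5%). These interaction counts were 0 or 1 higher without 20-day vehicle replicate 1 or 2, 3-day treated replicate 1 or 2 or any 3-day vehicle library, 0 to 2 lower without any single library other than the replicate 3 libraries of the 20-day groups and of 3-day treated cells, and 7 lower without 20-day vehicle replicate 3. Of 32 EWS::FLI1-repressed genes, TIMP1 was the single call, which became 2 calls without 20-day vehicle replicate 3, 10 without both 20-day replicate 3 libraries and 11 with the replicate block within time. Their medians were 0.80 in the treated and 0.53 in the vehicle arm, where 4 and 7 rose (12.5% and 21.9%, against 3.69% and 11.9% of all genes) and 0 fell. Replicate 3 stood apart in these genes: their mean level relative to 3-day vehicle was 0.22, 0.16 and 1.08 log2 in 20-day vehicle and 0.21, 0.18 and 1.23 in 20-day treated libraries. Without both of these replicate 3 libraries the medians were 0.10 in the vehicle and 0.48 in the treated arm, and the median interaction of 0.51 was -0.03 without that of treated cells. The 4 were 10 without 20-day vehicle replicate 3, and the 7 were 3 or 4 without 20-day vehicle replicate 2 or any 3-day vehicle library. NR0B1, an EWS::FLI1 target, had an interaction of 0.00 ± 0.33, and CCND1, cyclin D1, -0.13 ± 0.26.

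Adhesion genes, which the series title bears on, had few or no called interactions, depending on the fit. PTK2 had 162 to 172 CPM in 3-day vehicle, 174 to 189 in 3-day treated, 163 to 178 in 20-day vehicle and 162 to 201 in 20-day treated libraries, and its interaction was -0.04 ± 0.12 (adjusted p = 0.843). Of 42 integrin and focal adhesion genes 0 were called in the interaction by edgeR or limma-voom, 3 by DESeq2 and 8 at an unadjusted p under 0.05 (median -0.03). With the replicate block within time 5 were called higher and 2 lower, as without both 20-day replicate 3 libraries, and with the replicate number as a block 3 higher. Without single libraries there were 2 higher without 20-day treated replicate 2 or 20-day vehicle replicate 3, 1 higher without 3-day treated replicate 3 and 2 lower without 20-day treated replicate 3. In these genes 7 rose (16.7%, against 3.69% of all genes) and 0 fell in the treated arm (median 0.24). In the vehicle arm 6 rose (14.3%, near the 11.9% of all genes) and 0 fell (median 0.29). The first count was 2 and 4 without 3-day treated replicates 1 and 2 and 11 without 20-day vehicle replicate 3, and the second was 3 without 20-day vehicle replicate 1 and 2 and 3 without 3-day vehicle replicates 2 and 3. Of 54 collagen and matrix genes 2 were called higher and 4 lower (11.1% called, near the 8.94% of all genes). In the treated arm 7 rose (13%, against 3.69% of all genes) and in the vehicle arm 12 (22.2%, against 11.9%), with 0 lower in either. The 7 were 2 to 4 without any 3-day treated library or 3-day vehicle replicate 1 or 3, and 12 without 20-day vehicle replicate 3, while the 12 were 19 without 20-day treated replicate 3. The interaction counts were 1 higher without any single library other than the replicate 3 libraries of 20-day vehicle and of both treated groups, 2 lower without 20-day treated replicate 2, 20-day vehicle replicate 1 or 2, 3-day treated replicate 1 or 2 or any 3-day vehicle library, and 7 higher with the replicate block within time. COL5A2, a fibrillar collagen chain, had an interaction of -0.77 ± 0.15 (adjusted p = 0.0131) and rose by 0.55 in the vehicle arm.

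Interferon and neuronal genes had few calls beside medians above 0. The median interaction of 31 interferon-stimulated genes was 1.17 and 28 were above 0, yet there was a single call (3.23%, against 8.94% of all genes). It was STAT2, which was lower (-0.94 ± 0.21, adjusted p = 0.0206) and rose by 1.13 in the vehicle arm. STAT2 lost its call without 20-day vehicle replicate 1 or 2, 3-day treated replicate 2 or 3-day vehicle replicate 1 or 3 (highest adjusted p = 0.0584), and the list's median ranged from 0.42 to 1.60 as each library was left out. Higher calls numbered 8 without 3-day treated replicate 3, 1 without 20-day treated replicate 2 or 3 or 20-day vehicle replicate 3, 4 by DESeq2, 5 in the fit of all 30 libraries, and 2 and 3 with the replicate number and the pairs within time as a block. The 31 neuronal genes had a median of 0.32 and 25 above 0, with 0 called higher and 2 lower (6.45%, against 8.94% of all genes). The 2 were KIF5A and VAMP2, each of which lost its call in 9 of 12 fits (highest adjusted p = 0.107 and 0.101). Each kept it without 20-day vehicle replicate 3, 3-day treated replicate 3 and 20-day treated replicate 1 for KIF5A or 3 for VAMP2. Both lost it in the fit of all 30 libraries. Higher calls numbered 3 without 20-day vehicle replicate 3, 1 without 20-day treated replicate 2 or 3 or 20-day vehicle replicate 1, 4 without both 20-day replicate 3 libraries, 3 by DESeq2, and 3 and 4 with the replicate number and the pairs within time as a block. The median was 0.17 without 20-day treated replicate 3 and 0.07 without both 20-day replicate 3 libraries. In the treated arm 6 neuronal genes rose (19.4%, against 3.69% of all genes) and 0 fell. Among those that rose was MAP2, a microtubule protein of dendrites, by 1.77 (interaction 1.24 ± 0.41, adjusted p = 0.0709). This count of 6 was 1 without any single 3-day treated library and 3 without 20-day vehicle replicate 1 or 2 or any 3-day vehicle library. NCAM1, a neural adhesion molecule, rose by 1.54 in the treated and by 1.45 in the vehicle arm, and its interaction was 0.08 ± 0.48.

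The A673 line, which was sampled at the same times and doses, gave the test of whether these changes differed between lines. In a fit of all 30 libraries the interaction in CHLA10 minus that in A673 was called for 1647 of 16713 genes (9.85%). It was called for 649 of the 1336 CHLA10 genes (48.6%). Those genes were chosen by the CHLA10 interaction, which is a part of this difference. Their share is raised by that choice and is no measure of how far the lines differ. The A673 interaction was called for 1214 genes (7.26%). It was called for 166 of the CHLA10 genes (12.4% of the CHLA10 and 13.7% of the A673 calls), in the same direction for 32 and in the opposite direction for 134. CHLA10 was grown in another medium (IMDM with added insulin, transferrin and selenium) than A673, so line and medium cannot be told apart.

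In that fit G1/S and replication genes were called higher for 30 and lower for 0 of 50 in CHLA10 (median 0.60), and higher for 0 and lower for 4 in A673 (median -0.29). The difference was called higher for 32 and lower for 0. For E2F1 it was 1.63 (adjusted p = 0.00024), for MXD4 -2.64 (adjusted p = 7.53e-10), for HK2 1.61 (adjusted p = 5.27e-05), for YPEL3 -3.68 (adjusted p = 0.00034) and for ABTB1 -4.11 (adjusted p = 2.81e-05). These genes too were named for a called CHLA10 interaction. Ribosome biogenesis genes were called lower for 14 and higher for 0 of 42 in A673, and the difference was higher for 18. The glycolysis and hypoxia genes had 6 higher and 1 lower in A673, and a difference called higher for 5 and lower for 1 of 32. Over all 16713 genes of that fit, the A673 interaction was called higher for 724 and lower for 490. The CHLA10 interaction was called higher for 560 and lower for 497, and the difference higher for 786 and lower for 861. The median difference was 0.88 for the G1/S, 0.79 for the ribosome biogenesis and 0.65 for the glycolysis and hypoxia genes. For STC2, whose A673 interaction was -2.10, the difference was 0.24 (adjusted p = 0.871).

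**Figure D5:**
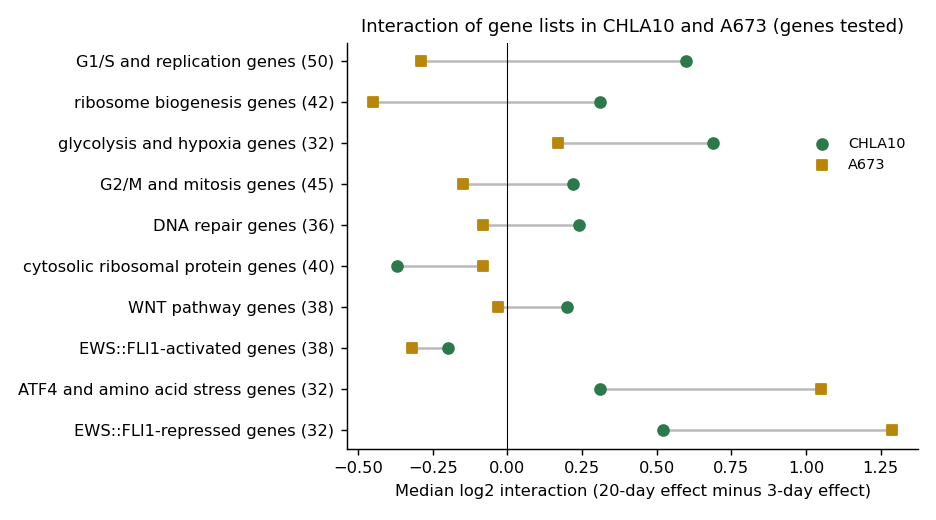
Median log2 interaction of the tested members of 10 gene lists in CHLA10 (circles) and A673 (squares), from the fit of all 30 libraries. G1/S and replication genes have medians of 0.60 in CHLA10 and -0.29 in A673.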

How the data were processed

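Poly(A)-selected RNA of 12 CHLA10 libraries (4 groups of 3, by the line, time and treatment in the labels) was analysed. The submitters' processing notes list FastQC, Trim Galore, STAR, DESeq2 and the build GRCh38. Not given in the sources used here are their versions, the strand setting, the annotation and the counting tool. The table the authors deposited holds raw counts per gene for 33538 genes and 30 libraries, each column matching 1 sample title. Symbols were paired with 33113 IDs. All labels give batch 1. Strand is unknown, so overlapping and antisense genes are uncertain. Every pair of replicates differed by more than counting error, with a chi-square of at least 2.16 a gene.

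Counts were filtered with filterByExpr by group (14937 genes), scaled by TMM and fitted in R 4.3.3 with edgeR 4.0.16 (quasi-likelihood, robust, 1 mean per group). Contrasts were adjusted by Benjamini-Hochberg over all genes tested and called under 0.05. The SE of a log2 change is its size over the root of its F statistic. CPM uses TMM-scaled library sizes, except that the CPM of the cell type markers and their sums use plain total counts. List levels use log2 CPM with a prior count of 2. The A673 comparison is a fit of all 30 libraries. The fit was tested on simulated counts.

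The comparison, gene lists and rules were chosen with earlier results of these data known. Genes were named from a set of 16; the 12 highest and 12 lowest interactions among called protein-coding genes with a mean log2 CPM of at least 2 whose larger arm's groups did not overlap; 5 with opposite calls; 5 each way with the vehicle arm alone called; and up to 4 called members per list. Other list members were named after their values were seen, as examples of a list's count: MCM2 to MCM7, PCNA, E2F2, EGLN3, P4HA2 and AXIN2. Of 44 lists, those not described are left out for length, and 1 gene is not reported here.

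Replicate numbers come from the titles. Deviations from the group means of same-numbered treated and vehicle libraries correlated at 0.26, 0.21 and 0.44 at 20 days and at 0.029, -0.011 and 0.00023 at 3 days. At 20 days 2 of the 3 treated libraries correlated best with the vehicle library of their number, and at 3 days 1. Replicate 3 stood farthest from its group in both 20-day groups. Whether the numbers mark paired cultures was thus not settled, and the blocks are alternatives only. Alternatives were DESeq2 1.42.0, limma-voom (limma 3.58.1), 3 other scalings (RLE, upper quartile, plain library size), other filters (none, or CPM above 1 in 3 libraries), a fit of all 30 libraries, replicate blocks, fits without single libraries or without both 20-day replicate 3 libraries, a table without the 50 most abundant genes, and stricter calls (adjusted p under 0.01, or a log2 change of 1 or more in size). Figures used matplotlib 3.10.9 in Python 3.11.15.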

Additional observations from a re-analysis of the deposited data

Results flagged for a closer look

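The interaction is itself a test that the effect of BMS-986158 differs between 3 and 20 days. Passing it was the condition for a gene to be given here, so it adds no support. Several of these genes lost the call as single libraries were left out, as described above. The higher ones were NCR3LG1 (2.18 log2), B4GALNT1 (2.10), OSBPL6 (2.04), LAMA1 (2.02), C3orf70 (1.87), CEBPD (1.81), SIRPA (1.77), CHD7 (1.76), TMEM200C (1.73), FJX1 (1.72), LRP8 (1.71), ADCY1 (1.65), STC1 (1.61), FKBP5 (1.55), FAM222A (1.50) and SLC7A1 (1.41). The lower ones were H2AC6 (-3.26), CCND2 (-3.15), SELENOP (-2.55), TCP11L2 (-2.43), OPCML (-2.33), APELA (-2.22), GNG7 (-2.06), CSMD3 (-1.99), YPEL3 (-1.98), H2BC5 (-1.98), ABTB1 (-1.95), ABI3BP (-1.89), CALCOCO1 (-1.89), SLC35A1 (-1.60), IGF1 (-1.04) and MYC (-0.49). For SLC35A1, a transporter of CMP-sialic acid, the vehicle arm alone was called, and the interaction call was lost without 20-day vehicle replicate 1 or 2, 3-day treated replicate 1 or 2 or any 3-day vehicle library (edgeR, highest adjusted p = 0.0788).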

How the results depend on the processing

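None of the 119 called genes the naming rule gave changed sign in any of 26 settings. Of their 3094 values 2390 kept the call and 704 lost it, and of 363 values of 14 uncalled genes 16 gained one. Of the 119, 49 were called without each library in turn, and calls were lost for 30 in the fit of all 30 libraries, 10 with limma-voom, 5 without both 20-day replicate 3 libraries and 0 with DESeq2. The balance of calls turned in several settings, for example from 635 higher and 701 lower interactions to 731 and 620 with RLE, 700 and 591 by library size and 1235 and 1044 with DESeq2, and from 1773 and 1504 in the vehicle arm to 808 and 977 without 20-day vehicle replicate 1. The median interaction changed sign in some setting for 11 of 37 lists, among them the EWS::FLI1-repressed, MYC network, collagen and integrin lists. With DESeq2 the treated arm was called higher for 920 and lower for 418, and the arms by gene were treated only 400, vehicle only 1548, both 90 and neither 241. With the replicate number as a block the interaction was called for 1074 genes higher and 1061 lower (treated only 283, vehicle only 1531, both 65, neither 256), and with pairs within time as the block for 1556 and 1509. Of the 119 genes, CDH8 and FAT3 lost the call with the number block, and SEMA3C, CDH8, EGR2 and FAT3 with the block within time. Without both 20-day replicate 3 libraries the interaction was 2054 higher and 2051 lower, the treated arm 1187 and 770, the vehicle arm 3176 and 2748 (treated only 564, vehicle only 2900, both 371, neither 270). At adjusted p under 0.01 the interaction was 44 higher and 66 lower, the treated arm 174 and 33, the vehicle arm 691 and 696, the 3-day effect 1793 and 1676, the 20-day effect lower 1943, and the arms 20 treated only, 84 vehicle only, 2 both and 4 neither. At an absolute log2 change of at least 1, asked of the arms too, the interaction was 139 higher and 199 lower, the treated arm 280 and 72, the vehicle arm 411 and 62, the 3-day effect 582 and 1181, the 20-day effect 722 and 1388, and the arms 90 treated only, 123 vehicle only and 5 both. Leaving out 1 library at a time gave 182 to 1603 higher and 153 to 1549 lower interactions, 206 to 772 and 93 to 355 in the treated arm, 781 to 2251 and 902 to 2128 in the vehicle arm, 2079 to 3334 and 1966 to 3238 at 3 days, 2450 to 3353 and 2357 to 3235 at 20 days, 61 to 395 treated only, 249 to 2267 vehicle only, 8 to 138 both and 17 to 352 neither. For the difference from A673 these were 508 to 1312 higher and 566 to 1266 lower. Without the filter on low counts, 59% of called interactions were higher, against 635 of 1336 with it. The cause of these shifts was not tested, other than that a fit without a library has fewer samples. Depth differed by group, and its part in the counts was not tested.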
